A study of Mus musculus with 130 samples.

Results

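In mouse embryonic stem cells, 36 of the 52550 genes in the expression tables were higher in both lines with a G9a defect. With 1 TPM added to each level, these 36 were not higher, or only slightly so, in lines that lack DNA methyltransferases. The genes were chosen by measured values. In TPM, a measure of transcript abundance corrected for transcript length and library size, with 1 TPM added so that values near 0 give no extreme ratios, each was at least 2-fold higher in both G9a lines than in wild-type TT2 cells. Each was also under 1.2-fold in both DNA methyltransferase lines against wild-type J1 cells and against wild-type TT2 cells. Levels in those 6 libraries are therefore a description with no test, while the libraries of an inhibitor series took no part in the choice. Of 525 genes 2-fold higher in both G9a lines, which is 4.60% of the 11414 genes with at least 1 TPM in both, 39 were left out by family name or position on the Y chromosome. Of the 486 kept, 89 were under the 1.2-fold limit in both DNA methyltransferase lines against WT J1, 72 were under it against WT TT2, and 36 met both. The other 450 genes 2-fold higher in both G9a lines serve below as the nearest comparison.

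G9a, the product of Ehmt2, and its partner GLP, the product of Ehmt1, form an enzyme that places mono- and dimethylation on lysine 9 of histone H3, a mark of silenced chromatin. Dnmt3a and Dnmt3b set DNA methylation on unmethylated CpG sites, and Dnmt1 copies it at replication. In embryonic stem cells both systems help to keep germline and lineage genes silent, and G9a also promotes DNA methylation at some genes, in part without its histone-methylating activity.

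Each group was 1 library, so no spread between replicates could be estimated and no p-value is given. The G9a lines and their control have the strain label C57BL/6xCBA. For G9a/GLP DKO the cells were 1 clone (248-6) without G9a and GLP, for G9a CM they were 1 clone (G7) that lacks G9a and carries a G9a transgene with the changes Y1120V and Y1207F in its catalytic domain, and WT TT2 is the untreated wild-type line. The DNA methyltransferase lines and their control have the strain label 129S4/SvJae and are Dnmt3a/3b DKO, Dnmt1/3a/3b TKO, which also lacks Dnmt1, and WT J1. The inhibitor series is wild-type TT2 given a vehicle or UNC0638, an inhibitor of G9a and GLP, for 2, 4 or 14 days. Titles give its dose as 250 nM but the protocol gives 250 µM, and whether day 14 cells were treated throughout is not stated. All cells were grown in serum with leukemia inhibitory factor on gelatin, and single clones mean that clone and genotype cannot be told apart.

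Promoters of 15 of the 36 genes were matched in RefSeq (GRCm38.p6), each taken from 250 bases before to 50 bases after the start of the gene. Below are those of 5 genes described in the results, picked to run from CpG-poor to CpG-rich. Capitals mark CpG dinucleotides, the sites that DNA methyltransferases act on, and all are written 5′ to 3′ along the gene's own strand.
Cd3g promoter, chr9:44980382-44980681, minus strand: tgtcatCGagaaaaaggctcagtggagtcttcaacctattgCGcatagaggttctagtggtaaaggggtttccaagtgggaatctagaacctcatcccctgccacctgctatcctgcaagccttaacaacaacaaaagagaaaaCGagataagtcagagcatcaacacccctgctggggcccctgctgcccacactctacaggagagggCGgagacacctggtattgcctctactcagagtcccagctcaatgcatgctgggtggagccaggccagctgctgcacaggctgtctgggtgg
Dyrk4 promoter, chr6:126921790-126922089, minus strand: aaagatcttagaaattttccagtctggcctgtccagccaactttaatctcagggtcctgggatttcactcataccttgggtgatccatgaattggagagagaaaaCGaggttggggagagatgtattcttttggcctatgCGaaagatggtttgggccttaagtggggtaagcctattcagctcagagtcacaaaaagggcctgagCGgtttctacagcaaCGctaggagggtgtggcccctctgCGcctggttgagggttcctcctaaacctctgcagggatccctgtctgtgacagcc
Cyct promoter, chr2:76360404-76360703, minus strand: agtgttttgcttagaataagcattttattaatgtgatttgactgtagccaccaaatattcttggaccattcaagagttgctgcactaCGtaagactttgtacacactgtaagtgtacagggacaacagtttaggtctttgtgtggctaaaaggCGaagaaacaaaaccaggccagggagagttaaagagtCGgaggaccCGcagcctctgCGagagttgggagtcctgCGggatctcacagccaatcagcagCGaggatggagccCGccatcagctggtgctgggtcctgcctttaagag
Gm6803 promoter, chr12:88018958-88019257, minus strand: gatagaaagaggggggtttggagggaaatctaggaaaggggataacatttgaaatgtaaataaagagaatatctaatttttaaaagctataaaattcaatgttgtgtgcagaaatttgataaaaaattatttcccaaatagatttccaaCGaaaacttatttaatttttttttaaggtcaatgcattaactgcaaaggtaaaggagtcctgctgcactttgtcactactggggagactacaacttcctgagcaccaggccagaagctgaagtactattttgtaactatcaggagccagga
Baiap2l1 promoter, chr5:144358063-144358362, minus strand: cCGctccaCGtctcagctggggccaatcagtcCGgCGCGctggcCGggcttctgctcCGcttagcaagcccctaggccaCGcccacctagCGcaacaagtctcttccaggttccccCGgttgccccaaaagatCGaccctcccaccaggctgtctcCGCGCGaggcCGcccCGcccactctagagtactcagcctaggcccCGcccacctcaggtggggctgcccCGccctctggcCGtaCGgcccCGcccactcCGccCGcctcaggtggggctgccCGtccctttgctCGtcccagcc
These hold 4 CpG sites for Cd3g, 5 for Dyrk4, 8 for Cyct, 1 for Gm6803 and 25 for Baiap2l1. Over the 15 matched promoters the number ran from 1 to 46 with a median of 8. The ratio of observed to expected CpG was at least 0.6, a usual mark of a CpG-rich promoter, in 7 of 15 (46.7%), in 41.3% of 298 promoters of the other genes 2-fold higher in both G9a lines, and in 73.9% of 8519 promoters of genes with at least 1 TPM in both G9a lines. The share thus lay close to that of the other raised genes and below that of expressed genes at large. Of 3 motifs looked for on both strands, TCCCGC, found at binding sites of E2F6, was in 3 of the 15 promoters (20.0%), against 23.5% of the other raised genes and 35.9% of expressed genes. CACGTG, the E-box bound by MGA, was in 0 of 15, against 9.06% and 10.8%. TGACGTCA, the cyclic AMP response element, was in that of Tbcc alone (6.67%), against 3.36% and 3.63%.

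Library totals ran from 11436808 expected counts in the library labelled G9a/GLP DKO to 25609614 in WT TT2. All 6 embryonic stem cell markers were at 1 TPM or more in every library, and the summed level of 7 fibroblast markers was 1.99 to 5.80 TPM. The summed level of 6 neural markers was 331 TPM in the library labelled G9a/GLP DKO and 320 TPM in G9a CM, against 168 TPM in WT TT2, and was 235 to 245 TPM in the inhibitor series. The neural sum was also high in Dnmt3a/3b DKO (368 TPM) and Dnmt1/3a/3b TKO (352 TPM), against 17.0 TPM in WT J1. The summed level of 6 trophoblast markers was 5.57 and 4.50 TPM in those G9a lines against 1.51 TPM in WT TT2, and was 3.38 TPM with vehicle and 7.29 TPM at day 14. It was 1.92 TPM in Dnmt3a/3b DKO and 3.68 TPM in Dnmt1/3a/3b TKO, against 0.59 TPM in WT J1. The part of such cells in the results below was not tested. The 4 libraries of the inhibitor series stood apart from the other 6, with Pou5f1 at 435 to 557 TPM against 7.61 to 33.1 TPM, so WT TT2 and the vehicle control differ although both are wild-type TT2. Ehmt1 had 6.71 TPM in the library labelled G9a/GLP DKO and 30.6 TPM in G9a CM, against 23.9 TPM in WT TT2. Ehmt2 had 13.01 TPM and 22.2 TPM in those lines, against 10.1 TPM in WT TT2, so the level of Ehmt2 gave no check of its deletion in the library labelled G9a/GLP DKO. TPM raised the median gene slightly: over the 11414 expressed genes the log2 difference against WT TT2 had a median of 0.18 in the library labelled G9a/GLP DKO and 0.12 in G9a CM, and of -0.04 and -0.05 after TMM scaling. Intervals below are 95% exact binomial intervals of the ratio of counts, scaled to TPM by effective length and library, and cover counting error only.

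**Figure D1:**
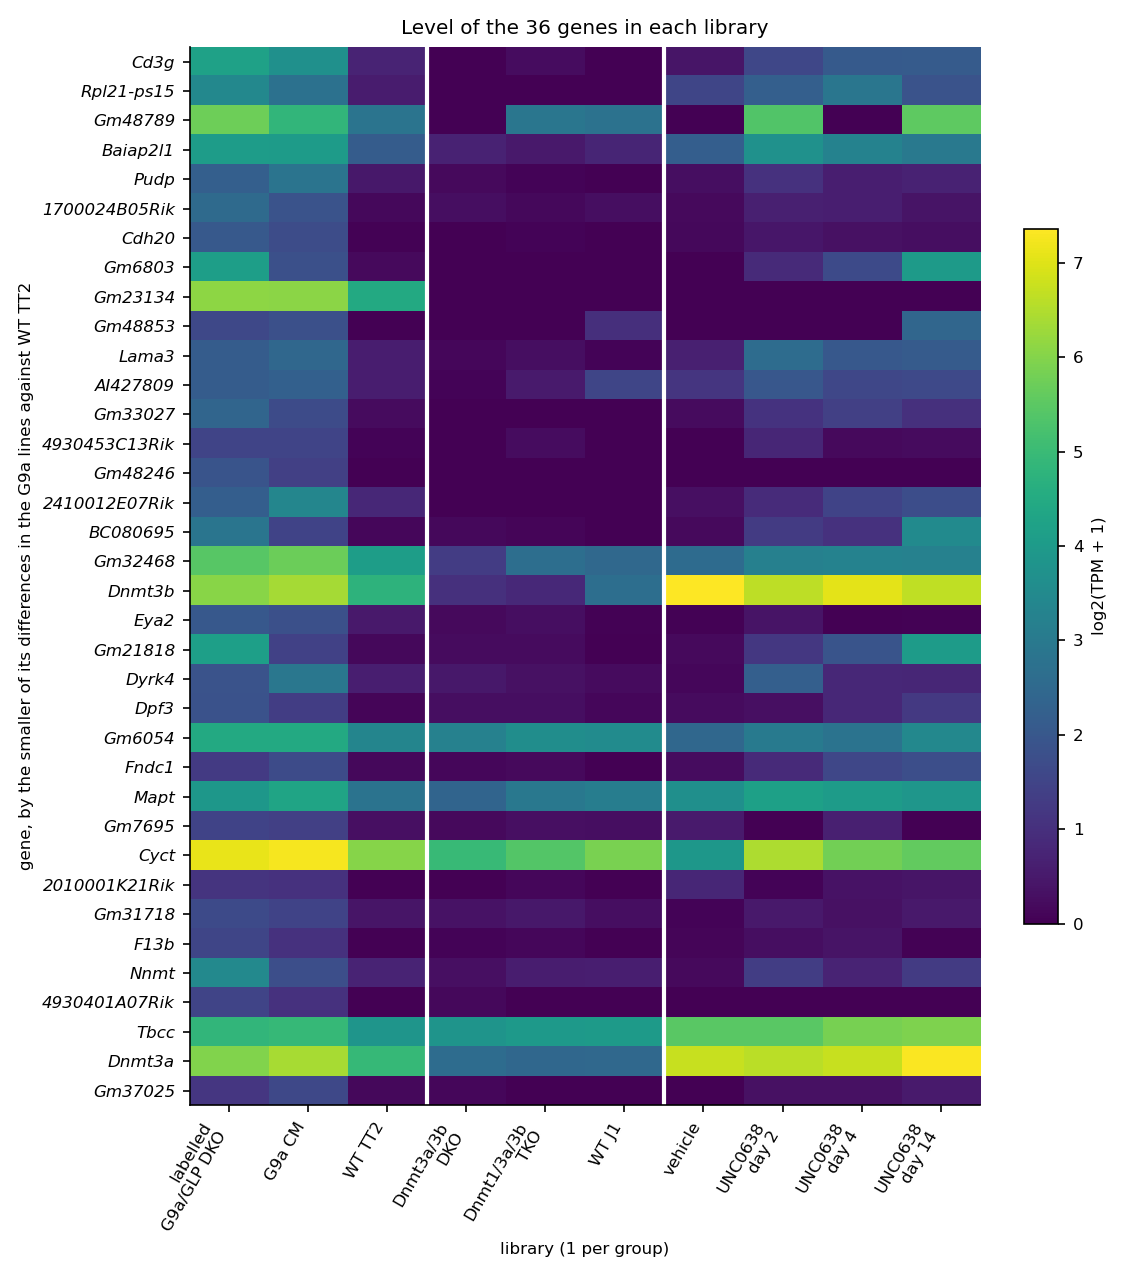
Level of the 36 genes as log2(TPM + 1), with 1 row per gene and 1 column per library, ordered by the smaller of the 2 differences in the G9a lines against WT TT2. The G9a lines are bright relative to WT TT2 by the choice of genes, Dnmt3a, Dnmt3b and Tbcc are brighter still in the vehicle control, and Gm6803, Gm21818 and BC080695 brighten by day 14 of UNC0638.

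The median level of the 36 was 4.03 TPM in the library labelled G9a/GLP DKO and 2.60 TPM in G9a CM, against 0.405 TPM in WT TT2. It was 0.115 TPM in Dnmt3a/3b DKO and 0.185 TPM in Dnmt1/3a/3b TKO, against 0.045 TPM in WT J1. In the inhibitor series it was 0.165 TPM with vehicle, 1.09 TPM at day 2, 0.905 TPM at day 4 and 2.21 TPM at day 14. At day 14, 14 of the 36 were under 1 TPM, against 0 in G9a CM, where the choice of genes set this. Against the vehicle control, on TPM + 1, the median log2 difference of the 36 was 0.55 at day 14 and 1.52 in G9a CM. For 23 genes the level was under 1 TPM in WT TT2, WT J1, both DNA methyltransferase lines and the vehicle control alike. In RefSeq 18 are protein-coding, 6 make noncoding RNA and 3 are pseudogenes, and 9 have no entry there. The evidence behind them is uneven, since 22 had at least 30 counts in both G9a lines, 8 had under 10 in at least 1 of them, and Gm23134, Gm48246, Gm48789 and Gm48853 had at most 4 in both. The last 4 have effective lengths from 1.18 to 39.7 bases, so a single read gives them a high TPM.

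Among genes of the cell surface and matrix, Cd3g, which encodes the gamma chain of the CD3 complex of the T cell receptor, had the largest difference from WT TT2 of the 36 by the lower of its values in the 2 G9a lines. Its level was 17.7 TPM in the library labelled G9a/GLP DKO and 11.9 TPM in G9a CM, against 0.67 TPM in WT TT2. The library labelled G9a/GLP DKO stood 26.5-fold (15.7 to 48.6) and G9a CM 17.7-fold (10.4 to 32.6) above WT TT2. In the lines without DNA methyltransferases Cd3g was listed at 0 in Dnmt3a/3b DKO and at 0.19 TPM in Dnmt1/3a/3b TKO, and at 0 in WT J1. Under the inhibitor it had 0.34 TPM with vehicle, 1.96 TPM at day 2, 3.21 TPM at day 4 and 3.31 TPM at day 14, all 3 treated libraries being above the vehicle control. At day 14 the ratio to the vehicle control was 9.74 (2.87 to 50.3), on 21 counts against 3. On CPM + 1 (counts scaled by library size and not by length) with TMM scaling the log2 differences were 0.72, 0.94 and 0.92 at the 3 times, all under the 2-fold limit of 1. In bulk RNA, more cells that express a gene and more RNA in each cell cannot be told apart. Of 6 other T cell genes, picked after the levels of Cd3g were seen, Ptprc, Trac, Cd247, Cd4 and Cd8a were at most 0.28 TPM in the G9a lines. Cd2, a surface protein of T cells, had 2.94 TPM in the library labelled G9a/GLP DKO and 3.68 TPM in G9a CM, against 5.95 TPM in WT TT2.

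Lama3, which encodes an alpha chain of laminin in epithelial basement membranes, had 3.46 TPM in the library labelled G9a/GLP DKO and 4.48 TPM in G9a CM, against 0.49 TPM in WT TT2. These are ratios of 7.06 (5.35 to 9.38) and 9.14 (7.04 to 12.0). In the inhibitor series it had 0.58 TPM with vehicle, 5.12 TPM at day 2, 3.11 TPM at day 4 and 3.30 TPM at day 14. Its highest level in any of the 10 libraries was thus at day 2, 8.83-fold (6.29 to 12.9) above the vehicle control. Lama3 had 0.09 TPM in Dnmt3a/3b DKO and 0.22 TPM in Dnmt1/3a/3b TKO, against 0.05 TPM in WT J1. These rest on 8, 22 and 6 counts. With 1 TPM added, its largest ratio in those lines was 1.16, so the 1.2-fold limit does not show that Lama3 was unchanged there.

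Baiap2l1 encodes an I-BAR protein that bends membranes and organises actin beneath them, and was the 1 gene of the 36 that also met the rule under every alternative form of it that was planned. It had 15.8 TPM in the library labelled G9a/GLP DKO and 15.4 TPM in G9a CM, against 3.39 TPM in WT TT2, on 531 and 662 counts against 270. The ratios were 4.66 (4.02 to 5.42) and 4.55 (3.95 to 5.27), with little between the G9a lines. In the J1 background it was at 0.63 TPM in Dnmt3a/3b DKO and 0.41 TPM in Dnmt1/3a/3b TKO, against 0.68 TPM in WT J1, so WT J1 was already below WT TT2. Under the inhibitor it ran in the order 3.57 TPM with vehicle, 12.3 TPM at day 2, 8.65 TPM at day 4 and 6.95 TPM at day 14. It was thus highest at day 2, at 3.46 times the vehicle control (2.82 to 4.29), and at day 14 was 1.95 times it (1.56 to 2.46). Baiap2l1 overlaps Bri3 in the annotation, and reads of overlapping genes cannot be told apart where counting ignores strand. Bri3 itself had 13.3 TPM in the library labelled G9a/GLP DKO and 15.7 TPM in G9a CM, against 11.6 TPM in WT TT2.

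Cdh20, a classical cadherin, had 3.13 TPM in the library labelled G9a/GLP DKO and 2.25 TPM in G9a CM, against 0.04 TPM in WT TT2, on 136 and 137 counts against 4. Under the inhibitor it stayed below those levels, with 0.12 TPM with vehicle, 0.36 TPM at day 2, 0.27 TPM at day 4 and 0.20 TPM at day 14. At day 2 it was 3.00 times the vehicle control (1.08 to 10.4). Fndc1, which encodes a protein with fibronectin type III domains, had a higher level at day 14 than in either G9a line. It had 1.39 TPM in the library labelled G9a/GLP DKO and 2.18 TPM in G9a CM, against 0.11 TPM in WT TT2. In Dnmt3a/3b DKO it had 0.10 TPM and in Dnmt1/3a/3b TKO 0.14 TPM, against 0.01 TPM in WT J1. These rest on 9, 15 and 1 counts. With 1 TPM added, its largest ratio in those lines was 1.13, so the limit does not show that Fndc1 was unchanged there. In the series it had 0.18 TPM with vehicle, 0.83 TPM at day 2, 1.94 TPM at day 4 and 2.39 TPM at day 14, the last being 13.3 times the vehicle control (6.82 to 28.0).

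A pair of the genes are known for expression in male germ cells. Cyct encodes the testis form of cytochrome c and was the most abundant of the 36 in the G9a lines. It had 138 TPM in the library labelled G9a/GLP DKO and 154 TPM in G9a CM, against 64.3 TPM in WT TT2, which are ratios of 2.14 (1.94 to 2.37) and 2.40 (2.19 to 2.62). It was also well expressed in the J1 background, at 29.9 TPM in Dnmt3a/3b DKO and 40.9 TPM in Dnmt1/3a/3b TKO, both below the 58.2 TPM of WT J1. Its level with vehicle was far lower, at 13.8 TPM, and it had 87.5 TPM at day 2, 55.0 TPM at day 4 and 47.2 TPM at day 14. The treated libraries therefore stood 6.34-fold (4.87 to 8.39), 3.99-fold (3.03 to 5.32) and 3.42-fold (2.57 to 4.60) above the vehicle control while lying below WT TT2 at days 4 and 14. On CPM + 1 with TMM scaling the log2 differences against WT TT2 were 0.71 in the library labelled G9a/GLP DKO and 0.97 in G9a CM, both under the 2-fold limit. The somatic cytochrome c gene Cycs, added for comparison, was lower in both G9a lines than in WT TT2, at 24.6 TPM in the library labelled G9a/GLP DKO and 35.99 TPM in G9a CM, against 95.01 TPM in WT TT2, but higher than the 13.8 TPM of the vehicle control.

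Dyrk4, a kinase of the DYRK family found mainly in testis, had 2.66 TPM in the library labelled G9a/GLP DKO and 6.55 TPM in G9a CM, against 0.53 TPM in WT TT2. Its levels were 0.09 TPM with vehicle, 3.68 TPM at day 2, 0.75 TPM at day 4 and 0.72 TPM at day 14, and the vehicle value rests on 2 counts. The ratio to the vehicle control was 40.9 (10.7 to 356) at day 2, 8.33 (2.04 to 75.6) at day 4 and 8 (1.74 to 76.7) at day 14. With 1 TPM added, only day 2 reached 2-fold.

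Of the genes of metabolism and blood, Nnmt, which encodes the enzyme that methylates nicotinamide with S-adenosylmethionine, had 10.1 TPM in the library labelled G9a/GLP DKO and 2.41 TPM in G9a CM, against 0.66 TPM in WT TT2. It was 0.13 TPM with vehicle on 1 count, 1.53 TPM at day 2, 0.65 TPM at day 4 and 1.43 TPM at day 14. On CPM + 1 with TMM scaling the log2 difference of Nnmt in G9a CM against WT TT2 was 0.87, under the limit. Pudp, a pseudouridine phosphatase, had 3.73 TPM in the library labelled G9a/GLP DKO and 6.06 TPM in G9a CM, against 0.39 TPM in WT TT2, and stayed at or under 1.05 TPM throughout the inhibitor series. F13b, which encodes the carrier subunit of coagulation factor XIII, was at 0 counts in WT TT2. It had 48 counts (1.93 TPM) in the library labelled G9a/GLP DKO and 37 counts (1.06 TPM) in G9a CM, and at most 9 counts in each library of the inhibitor series.

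The set holds 4 genes of chromatin or transcription. Dnmt3b and Dnmt3a, the de novo DNA methyltransferases, are the genes targeted in the J1-derived lines, so the limit set in those lines says nothing of them. Dnmt3b had 1.02 TPM in Dnmt3a/3b DKO and 0.81 TPM in Dnmt1/3a/3b TKO, against 5.30 TPM in WT J1, and Dnmt3a had 5.07 TPM and 4.49 TPM in those lines, against 4.66 TPM in WT J1. In counts Dnmt3a had 72 and 87 in those lines, against 259 in WT J1, from libraries of similar totals. Its like TPM values therefore do not show that its RNA was unchanged. Dnmt3b had 64.9 TPM in the library labelled G9a/GLP DKO and 81.2 TPM in G9a CM, against 25.9 TPM in WT TT2. Dnmt3a had 61.1 TPM in the library labelled G9a/GLP DKO and 84.0 TPM in G9a CM, against 29.6 TPM in WT TT2. Both were as high or higher in wild-type TT2 cells given vehicle, at 164 TPM for Dnmt3b and 106 TPM for Dnmt3a. In the treated libraries Dnmt3b was lower than with vehicle, at 97.3 TPM at day 2, 131 TPM at day 4 and 101 TPM at day 14. Dnmt3a was close to the vehicle control at days 2 and 4, with 95.3 and 106 TPM, and was 1.48 times it (1.42 to 1.55) at day 14, with 157 TPM. On TPM + 1 both genes were thus called higher against WT TT2 but not against the vehicle control, the other wild-type TT2 library. Against the vehicle control Dnmt3b was instead called 2-fold lower in both G9a lines, and Dnmt3a was called in neither direction. On CPM + 1 with TMM scaling the log2 difference of Dnmt3a in the library labelled G9a/GLP DKO against WT TT2 was 0.79, under the limit of 1. Dpf3, a subunit of the BAF chromatin remodelling complex, had 2.65 TPM in the library labelled G9a/GLP DKO and 1.53 TPM in G9a CM, against 0.08 TPM in WT TT2. Eya2, a transcriptional coactivator, had 3.07 TPM in the library labelled G9a/GLP DKO and 2.46 TPM in G9a CM, against 0.42 TPM in WT TT2. On CPM + 1 with TMM scaling the log2 differences of Eya2 were 0.74 and 0.70 in those lines, both under the limit. Dpf3 reached 1.33 TPM at day 14, against 0.17 TPM with vehicle, whereas Eya2 was at most 0.30 TPM in the inhibitor series.

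Mapt, which encodes the microtubule protein tau, and Tbcc, a cofactor of tubulin folding, lay close to the limit of 2. Mapt had 13.8 TPM in the library labelled G9a/GLP DKO and 18.8 TPM in G9a CM, against 5.93 TPM in WT TT2. Tbcc had 27.8 TPM in the library labelled G9a/GLP DKO and 29.6 TPM in G9a CM, against 13.2 TPM in WT TT2. With vehicle Mapt had 11.7 TPM and Tbcc 43.7 TPM, so neither G9a line was 2-fold above the vehicle control for Mapt, and both were below it for Tbcc. On CPM + 1 with TMM scaling Tbcc had log2 differences of 0.73 and 0.90 against WT TT2, under the limit in both lines.

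Gm6803, Gm21818 and BC080695 were each at least 2-fold higher in G9a/GLP DKO than in G9a CM, and each had over 10 TPM at day 14 of the inhibitor. Gm6803 had 16.6 TPM in the library labelled G9a/GLP DKO and 2.5 TPM in G9a CM, against 0.14 TPM in WT TT2. Its log2 difference in G9a CM against WT TT2 was 0.61 on CPM + 1 with TMM scaling, under the limit of 1. In the series it was listed at 0 with vehicle and had 0.85 TPM at day 2, 2.12 TPM at day 4 and 15.3 TPM at day 14. Gm21818 had 16.9 TPM in the library labelled G9a/GLP DKO and 1.69 TPM in G9a CM, against 0.11 TPM in WT TT2. For G9a CM its log2 difference was 0.99 on CPM + 1 with TMM scaling, just under the limit. With vehicle it had 0.14 TPM, then 1.30 TPM at day 2, 2.75 TPM at day 4 and 15.6 TPM at day 14. BC080695 had 6.31 TPM in the library labelled G9a/GLP DKO and 1.80 TPM in G9a CM, against 0.10 TPM in WT TT2, and its 10.4 TPM at day 14 was its highest level anywhere. It had 0.14 TPM with vehicle, 1.41 TPM at day 2 and 1.05 TPM at day 4. Against the vehicle control, the day 14 level of Gm6803 was at least 10.9-fold higher, taking 3 counts as the least that the vehicle library could have shown. That of Gm21818 was 111-fold higher (19.9 to 4502) on 117 counts against 1, and that of BC080695 was 74.6-fold higher (24.5 to 355). The vehicle library held 0, 1 and 3 counts of them, so their folds are known only within these wide limits.

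The noncoding RNAs were mostly raised to a few TPM. Gm32468 was the exception, with 42.6 TPM in the library labelled G9a/GLP DKO and 51.6 TPM in G9a CM, against 16.2 TPM in WT TT2. For the library labelled G9a/GLP DKO its log2 difference was 0.83 on CPM + 1 with TMM scaling, under the 2-fold limit. With vehicle it had 5.0 TPM and under the inhibitor 8.17 to 8.55 TPM, all below WT TT2. AI427809, listed in RefSeq as Mexis, a noncoding RNA known in macrophages for raising expression of its neighbour Abca1, had 3.40 TPM in the library labelled G9a/GLP DKO and 3.76 TPM in G9a CM, against 0.49 TPM in WT TT2. Abca1 had 0.87 TPM in the library labelled G9a/GLP DKO and 0.33 TPM in G9a CM, against 0.35 TPM in WT TT2. Gm33027 had 4.32 TPM in the library labelled G9a/GLP DKO and 2.21 TPM in G9a CM, against 0.15 TPM in WT TT2, and 2410012E07Rik had 3.63 and 9.48 TPM in those lines against 0.77 TPM in WT TT2. Both were at 0 in the 3 J1-derived libraries. 1700024B05Rik had 4.84 TPM in the library labelled G9a/GLP DKO and 2.71 TPM in G9a CM, against 0.11 TPM in WT TT2, and Gm31718 had 2.12 and 1.80 TPM in those lines against 0.34 TPM in WT TT2.

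Pseudogenes can share sequence with expressed genes, which can make counts uncertain, but their sequences were not compared here. The deposited spread of the posterior count in the G9a lines was 0 for Rpl21-ps15, Gm6054 and Gm7695. Rpl21-ps15, which lies within the gene Wnk3, had 9.83 TPM in the library labelled G9a/GLP DKO and 5.68 TPM in G9a CM, against 0.47 TPM in WT TT2. Gm6054 had 21.3 TPM in both G9a lines against 9.17 TPM in WT TT2, and Gm7695 had 1.78 TPM in the library labelled G9a/GLP DKO and 1.65 TPM in G9a CM against 0.24 TPM in WT TT2. On CPM + 1 with TMM scaling Gm6054 had log2 differences of 0.48 and 0.61 against WT TT2, under the limit in both lines. The remaining genes without a RefSeq entry were 4930453C13Rik, Gm37025, 2010001K21Rik and 4930401A07Rik, all at 1.05 to 2.05 TPM in the G9a lines and at most 0.11 TPM in WT TT2.

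In the inhibitor series, which played no part in the choice, the genes were more often 2-fold higher than expressed genes at large. At day 2, 9 of the 36 (25.0%) were at least 2-fold above the vehicle control, against 5.19% of the 11414 expressed genes. At day 4 it was 10 (27.8%) against 2.59%, and at day 14 it was 11 (30.6%) against 2.94%. The counting interval excluded 1 for 8, 9 and 9 of these. None was 2-fold lower at day 2, 4 or 14, where the expressed genes gave 1.43%, 0.727% and 0.902%. The median log2 difference of the 36 was 0.58 at day 2, 0.37 at day 4 and 0.55 at day 14, against 0.21, 0.02 and 0.08 for the expressed genes. All 3 times share the 1 vehicle library, so they do not repeat the result independently.

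The other 450 genes 2-fold higher in both G9a lines gave 19.3% at day 2, 22.4% at day 4 and 19.3% at day 14, so most of the excess over expressed genes was also present in genes that were not kept by the limits on the DNA methyltransferase lines. Over the 3 times together, 15 of the 36 were 2-fold higher at least once (41.7%, against 32.7% of the other 450 and 7.19% of expressed genes). Cd3g, Cyct, Gm21818 and Lama3 were so at all 3 times (11.1%, against 9.78% and 1.02%). The 15 also include 2410012E07Rik, BC080695, Baiap2l1, Dyrk4, Fndc1, Gm33027, Gm6803, Nnmt and Rpl21-ps15, and, on 1 count each, Gm48789 and Gm48853. The difference between the 36 and the other 450 genes was not tested. Another 14 genes, among them Cdh20, Pudp, Dpf3, Eya2, AI427809, Gm32468, Gm31718, Gm6054 and 1700024B05Rik, were on TPM + 1 2-fold above the vehicle control in both G9a lines and at no time under the inhibitor. The share of other genes with this pattern was not counted, so it is not read as a trait of the 36. Of expressed genes 15.1% were 2-fold above the vehicle control in both G9a lines and 7.19% at least once under the inhibitor. Of the other 450 genes 59.1% and 32.7% were. Without the added 1 TPM some of the 14 genes stood above the vehicle control under the inhibitor by more than counting error. Examples are AI427809 at day 2, at 2.51 times (1.55 to 4.20), and Dpf3 at day 14, at 7.82 times (2.25 to 40.8).

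**Figure D2:**
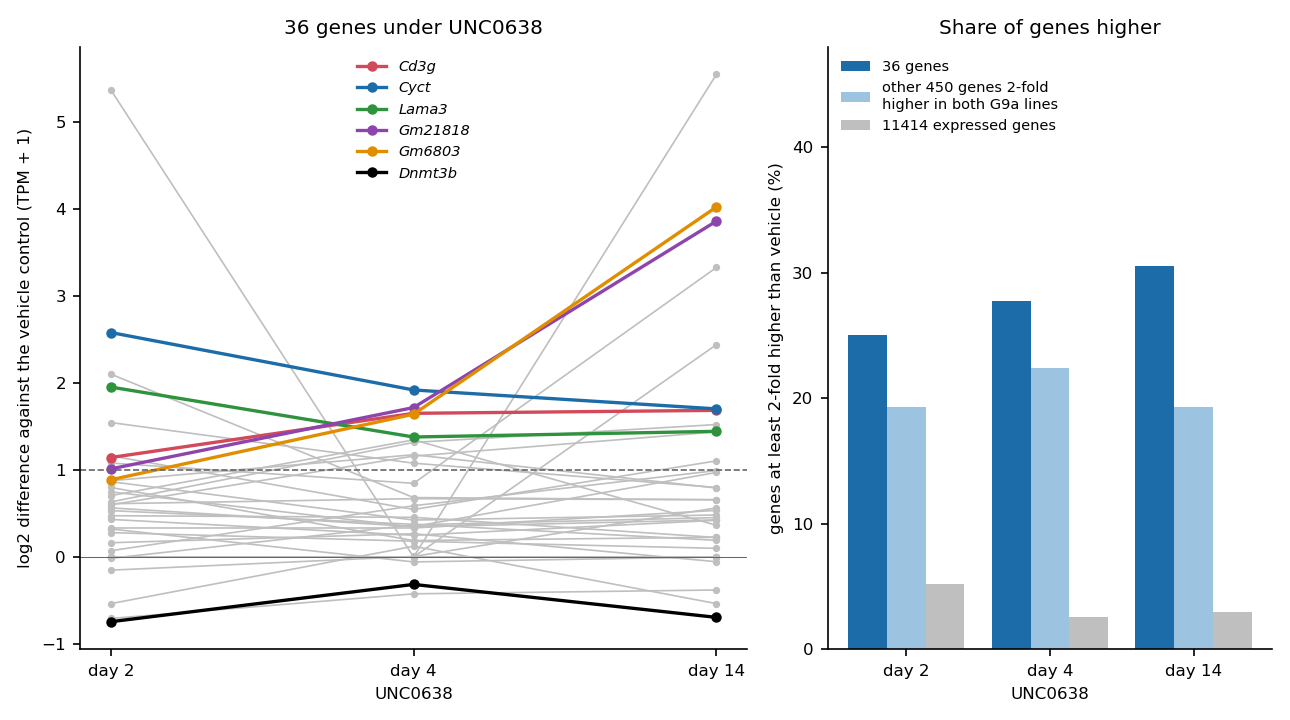
Left, log2 difference of each of the 36 genes against the vehicle control at each time of UNC0638, on TPM + 1, with 6 genes in colour and the limit of 2-fold as a dashed line (the grey line that peaks at days 2 and 14 is Gm48789, on 1 count each). Right, percent of genes at least 2-fold higher at each time, for the 36 genes, the other 450 genes 2-fold higher in both G9a lines and the 11414 expressed genes. Cyct and Lama3 were highest at day 2, Gm6803 and Gm21818 at day 14, and the 36 genes (25.0% to 30.6%) stood above the expressed genes (2.59% to 5.19%) and nearer to the other 450 (19.3% to 22.4%).

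Set against the vehicle control instead of WT TT2, the library labelled G9a/GLP DKO was at least 2-fold higher for 30 of the 36, against 21.3% of expressed genes. G9a CM was so for 29, against 19.0%. These 29 were 2-fold higher in both lines (80.6%), against 15.1% of expressed genes. The G9a values had been used for the choice, so these counts only show how far it depends on the control. The 7 others were Dnmt3b, Dnmt3a, Tbcc, Mapt, F13b, Gm7695 and 2010001K21Rik. Of these Dnmt3b alone was 2-fold below the vehicle control, in both lines (2.78% of the 36, against 22.3% of expressed genes in each line). Of all 36, 29 had their highest level of the 10 libraries in a G9a line, and BC080695, Dnmt3a, Dnmt3b, Fndc1, Gm48853, Lama3 and Tbcc had it in a library of the inhibitor series. Differences among the wild-type libraries could be called for only some of the 36, since the 23 genes under 1 TPM in all of them cannot reach 2-fold with 1 TPM added. The vehicle control was 2-fold above WT TT2 for Dnmt3b, Dnmt3a and Tbcc, which is 3 genes or 8.33%, against 26.2% of expressed genes, and 2-fold below it for 4 including Cyct and Gm32468, against 17.1%. WT J1 was 2-fold above WT TT2 for Gm48853 alone, on 1 count, against 5.93% of expressed genes, and 2-fold below it for 5 including Baiap2l1, Dnmt3a and Dnmt3b, against 19.1%. WT TT2 took part in the choice and a low level there favoured it, which bears on these counts. Of the 12 genes with at least 5 TPM in both G9a lines, 58.3% differed 2-fold between the vehicle control and WT TT2. Between WT J1 and WT TT2 41.7% did. Of expressed genes 43.3% and 25% differed so.

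**Figure D3:**
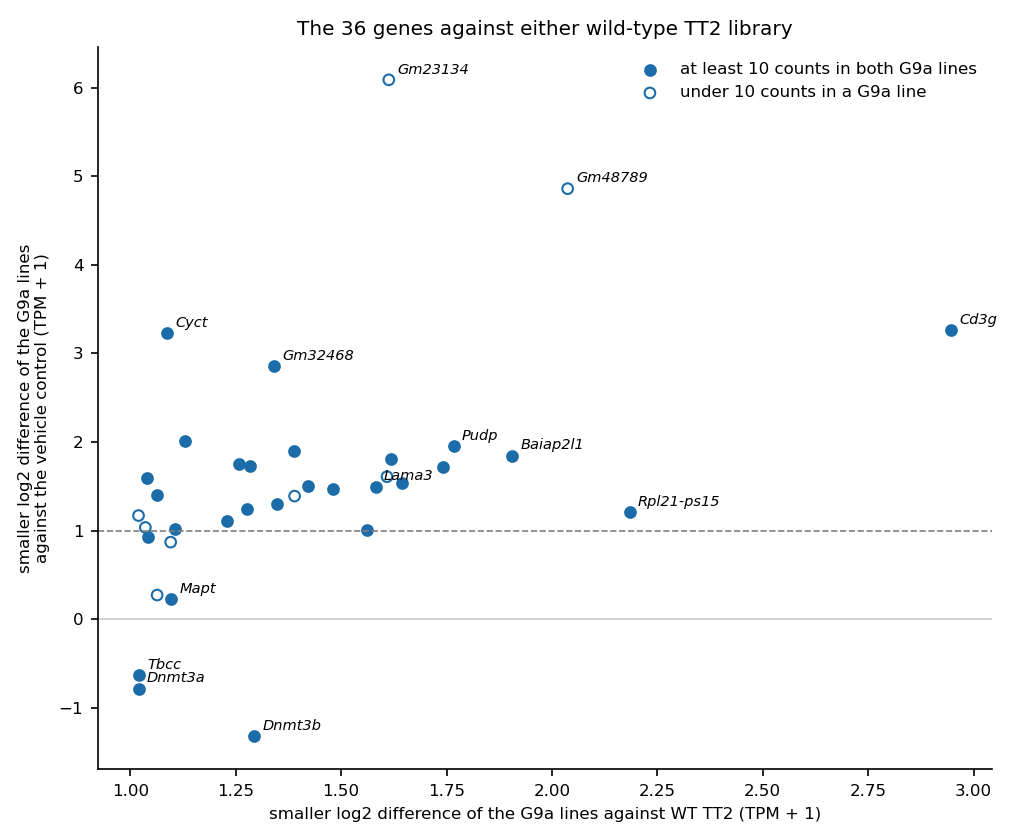
For each of the 36 genes, the smaller of the log2 differences of the 2 G9a lines against WT TT2 (horizontal) and against the vehicle control (vertical), on TPM + 1. Filled points had at least 10 counts in both G9a lines, and the dashed line is 2-fold; all points lie right of 1 by the choice of genes, 29 lie at or above the dashed line, and Tbcc, Dnmt3a and Dnmt3b lie below 0.

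The 2 G9a lines gave similar levels for most of the genes. The library labelled G9a/GLP DKO was at least 2-fold above G9a CM for Gm21818, Gm6803, Nnmt and BC080695, which is 11.1% of the 36 against 4.93% of expressed genes. It was at least 2-fold below it for 2410012E07Rik and Dyrk4, which is 5.56% against 2.62%. The ratio of the library labelled G9a/GLP DKO to G9a CM was 9.98 (6.08 to 17.4) for Gm21818 and 6.64 (3.30 to 14.8) for Gm6803, and 0.406 (0.263 to 0.608) for Dyrk4.

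No 2 of the genes with a position started within 1 Mb of each other, but some lay beside a gene that was also 2-fold higher in both G9a lines. Of 54 nearest neighbours with at least 1 TPM in any library, 4 (7.41%) were 2-fold higher in both G9a lines, against 3.21% of the 15145 such genes with a position. These 4 were not all low in the lines without DNA methyltransferases: Cd3d had 1.03 TPM and Ttc39c 2.62 TPM in Dnmt1/3a/3b TKO, against 0.03 and 0.94 TPM in WT J1. Gm20767 had 0.75 TPM in Dnmt3a/3b DKO against 0 in WT J1, and Dok2 had 1.57 TPM in Dnmt1/3a/3b TKO against 1.08 TPM in WT J1. Cd3d, the delta chain gene of the CD3 complex, lies 1338 bases from Cd3g and had 16.1 TPM in the library labelled G9a/GLP DKO and 4.65 TPM in G9a CM, against 1.02 TPM in WT TT2. Cd3e, the epsilon chain gene of the same cluster, had 4.59 and 1.41 TPM in those lines against 0.32 TPM in WT TT2. All 3 CD3 genes were also above the vehicle control at day 14, Cd3d with 1.23 TPM against 0.13 TPM and Cd3e with 4.98 TPM against 1.56 TPM. Ttc39c, a tetratricopeptide repeat gene 90 bases from Lama3, had 12.5 TPM in the library labelled G9a/GLP DKO and 11.8 TPM in G9a CM, against 1.61 TPM in WT TT2. It had 0.59 TPM with vehicle, 3.42 TPM at day 2, 4.16 TPM at day 4 and 7.23 TPM at day 14, so it increased with time where Lama3 did not.

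Gm20767, from the list of genes of the 2-cell stage and 17073 bases from Gm21818, had 24.8 TPM in the library labelled G9a/GLP DKO and 1.89 TPM in G9a CM, against 0.10 TPM in WT TT2. It was listed at 0 with vehicle and had 43.1 TPM at day 14. Gm2075 and Gm2056, which flank Gm6803 within 6022 bases, were at 0 with vehicle and had 6.89 and 8.86 TPM at day 14, but in G9a CM both were at or under 0.50 TPM. The fourth such neighbour, Dok2 beside 2410012E07Rik, had 5.24 TPM in the library labelled G9a/GLP DKO and 7.26 TPM in G9a CM, against 1.77 TPM in WT TT2, and was highest with vehicle at 30.7 TPM.

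**Figure D4:**
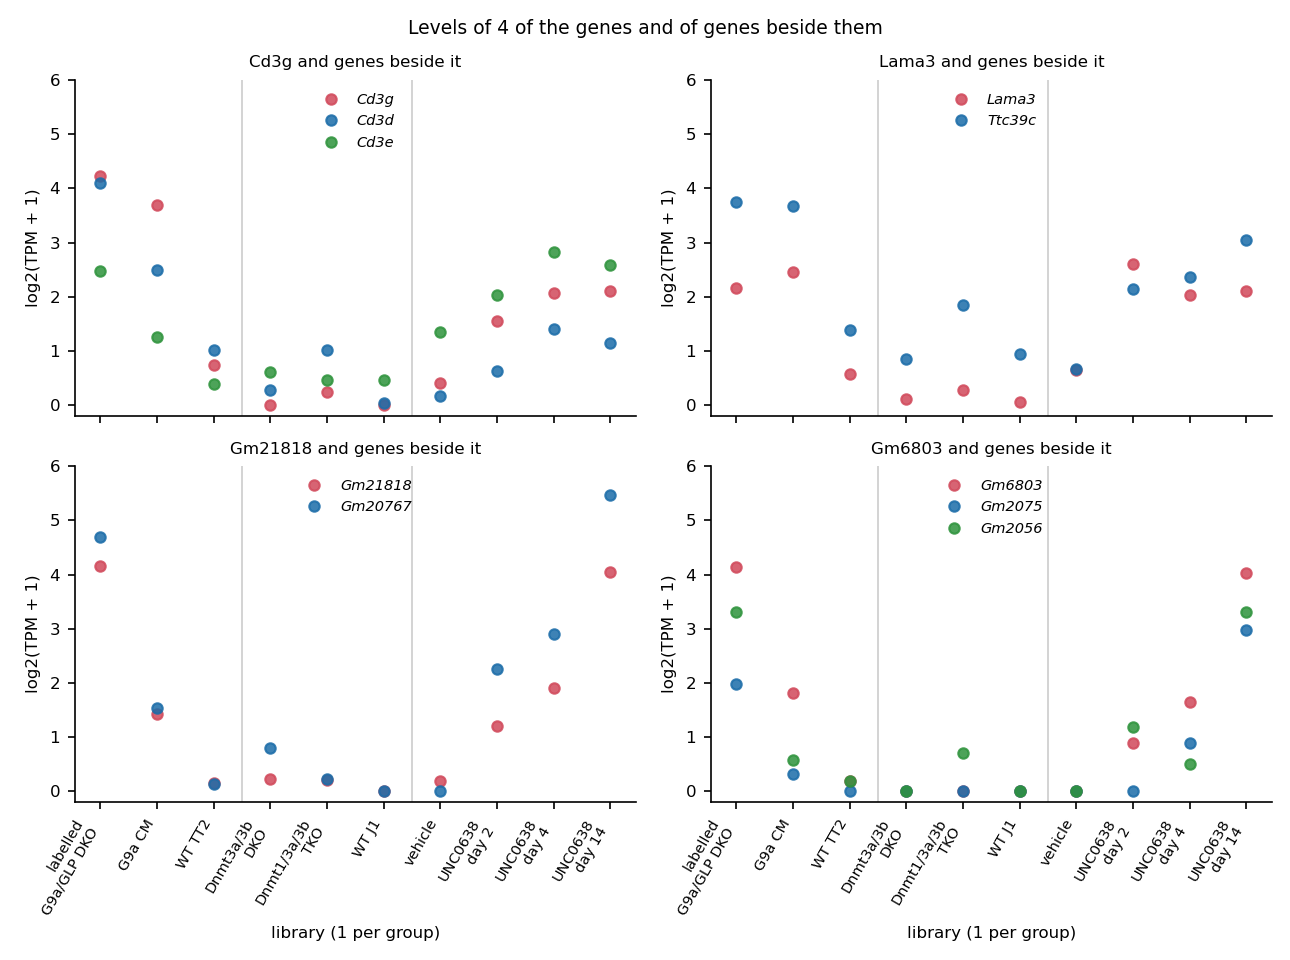
Levels as log2(TPM + 1) in the 10 libraries for Cd3g, Lama3, Gm21818 and Gm6803, in red, and for genes beside them. Cd3d and Ttc39c stand above WT TT2 in both G9a lines as Cd3g and Lama3 do, and Gm20767, Gm2075 and Gm2056 reach their highest treated level at day 14 as Gm21818 and Gm6803 do.

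Of the set, Dnmt3a, Dnmt3b and Mapt were on the 21 gene lists looked at. The share of all expressed genes on these lists was not counted, so this is not read as few or many. Dnmt3a and Dnmt3b are 2 of 18 genes on the list of formative and primed pluripotency genes, where Dnmt3l was the third 2-fold higher in both G9a lines. Mapt is 1 of 23 on the neural list and was the only one 2-fold higher in both. The list of 2-cell-stage genes held 0 of the set, although 9 of its 33 found members were 2-fold higher in both G9a lines and 17 were 2-fold higher at day 14. Germline, meiosis and piRNA genes also held 0, with 6 of 77 2-fold higher in both G9a lines. Of the expressed genes 4.60% were 2-fold higher in both G9a lines and 2.94% at day 14. All of those have at least 1 TPM in both G9a lines, as do 14 of the 33 and 50 of the 77 genes. The list shares and these shares are thus over unlike sets of genes. Cyct and Dyrk4, placed with male germ cells above, were on none of these lists. Neither was Gm21818, although its neighbour Gm20767 is on the 2-cell-stage list. Tcstv1, also on that list, had 12.0 TPM in the library labelled G9a/GLP DKO and 1.68 TPM in G9a CM. It had 0.05 TPM in WT TT2 and 11.8 TPM at day 14, levels much like those of Gm21818. The count of 0 thus does not show that the set lacks genes of the 2-cell stage.

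Membership near the limits rested on small differences. The 6 genes just inside the 2-fold limit, from Gm37025 to F13b, had a smaller ratio of 2.03 to 2.06, and the 6 just outside it, Fbln7, 1700086D15Rik, Agpat4, Tcf7l2, Gm8666 and Ccdc138, had 1.96 to 1.98. At the other limit Gm6054, Cd3g, 4930453C13Rik and Dyrk4 were just inside, with a largest ratio of 1.18 to 1.19 in the lines without DNA methyltransferases, and Bfsp2, Acta1, Gm16220 and Klb just outside, with 1.2 to 1.23. For Cd3g that ratio reflects 3 counts in Dnmt1/3a/3b TKO against 0 in WT J1.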

How the data were processed

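RNA of 10 cultures was sequenced from Smart-seq2 libraries, 1 library per group, out of 130 samples in the series. The submitters' processing notes name STAR 2.5.3a, RSEM and the builds GRCm38 and mm10. The annotation release and the use of strand are not given in the sources used here. Per the file headers, the authors deposited expected counts per gene from RSEM, in which reads matching several genes are shared out, and TPM, which is scaled by effective length and library size. A deposited signal column of the spread of each posterior count was used only as a check of uncertainty. The effective length in bases was used to scale the intervals from counts to TPM and for the floor of 3 counts. The 36 genes and the gene lists were chosen with earlier results of these data known.

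Genes were compared on log2(TPM + 1), and a difference of at least 2-fold was called higher or lower. Expressed genes are the 11414 with at least 1 TPM in both G9a lines. Ratios of TPM have 95% exact (Clopper-Pearson) binomial intervals from the expected counts, rounded to whole numbers; these cover counting error only. Against 0 counts, a fold is given as at least its value at 3 counts. The genes described in full were the members with the largest differences against WT TT2 at 5 TPM or more, members on the gene lists, those with the largest and smallest differences at day 14 and those nearest the limits, and the other members were added so that each is accounted for. Genes that are no members, other than Ehmt1 and Ehmt2, were named after their values were seen. Alternatives used TMM factors (edgeR 4.0.16) and size factors (DESeq2 1.42.0) on the counts, with R 4.3.3. The rest was computed in Python 3.11.15 with numpy 2.4.6, pandas 2.3.3 and scipy 1.17.1, and checked on simulated counts.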

Additional observations from a re-analysis of the deposited data

How the results depend on the processing

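The size of the set depended on the form of the rule: it held 229 genes with 0.1 TPM added and 11 with 5 TPM added, 22 on CPM + 1 with TMM factors, 122 and 10 with limits of 1.5-fold and 3-fold in the G9a lines, and 5 and 66 with limits of 1.0-fold and 1.5-fold in the lines without DNA methyltransferases. Of the 36 genes, 18 were kept with 0.1 TPM added, 7 with 5 TPM added and 12 on CPM + 1. With the vehicle control in place of WT TT2 the set held 344 genes and 29 of the 36, with WT J1 in its place 123 and 31, and with at least 5 TPM in both G9a lines 12. In forms added after the data were seen, it held 133 genes with G9a CM alone and 282 with the library labelled G9a/GLP DKO alone.

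For the inhibitor, 0.1 TPM added gave 58.3%, 55.6% and 52.8% of the 36 higher at days 2, 4 and 14. The expressed genes gave 9.89%, 4.95% and 5.52%. With it 72.2% were higher at least once, 41.7% at all times and 5.56% lower at least once, against 12.6%, 2.62% and 4.63%. With 5 TPM added, 8.33%, 2.78% and 13.9% were higher at the 3 times, 16.7% at least once and 2.78% at all times. The expressed genes then gave 1.34%, 0.613%, 1.04%, 2.27% and 0.166%. A limit of 1.5-fold gave 50% at day 2, 47.2% at day 14, 33.3% at all times and 5.56% lower at least once. The expressed genes gave 18.9%, 8.23%, 2.58% and 7.94%. Either CPM scaling gave 2.78% lower at least once, against 2.28% of expressed genes with TMM factors and 2.67% with DESeq2 size factors. Of the 12 genes with at least 5 TPM, 16.7% were higher at all times, against 1.02% of expressed genes. Against the vehicle control, 19.4% of the 36 were higher in both G9a lines with 5 TPM added and 50% on either CPM scaling. The expressed genes gave 7.18% and 17.2%. The vehicle control differed from WT TT2 in 50% with 0.1 TPM added, 58.3% of the 12 genes and 30.6% at 1.5-fold. The expressed genes gave 50.5%, 43.3% and 64.1%. WT J1 differed from WT TT2 in 52.8% with 0.1 TPM added, 11.1% with 5 TPM added and 41.7% of the 12. The expressed genes gave 34.6%, 13.6% and 25%. The G9a lines differed in 8.33% with 5 TPM added, 27.8% at 1.5-fold and 0.00% of the 12, against 3.31%, 25.1% and 7.55%. The cause of these moves was not tested. Of 105 values under an alternative, 63 stayed within 1.5 times the main one. TMM scaling moved the median of expressed genes from 0.21 to -0.03 at day 2, and that of the 36 genes from 0.58 to 0.27.

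No paired analysis was possible because each group was 1 library. Under either CPM scaling 18 of the 36 genes lost a 2-fold call against WT TT2, 12 of them in both G9a lines. The 12 were 2010001K21Rik, 4930401A07Rik, 4930453C13Rik, Cyct, Eya2, Gm23134, Gm48246, Gm48789, Gm48853, Gm6054, Gm7695 and Tbcc. The others were Dnmt3a, Gm21818, Gm32468, Gm37025, Gm6803 and Nnmt. Low counts also limit precision, since 8 of the 36 genes had under 10 counts in a G9a line.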

Other observations

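A few of the 36 genes were lower in a line without DNA methyltransferases than in WT J1, which the rule allowed. AI427809 had 0.06 TPM in Dnmt3a/3b DKO and 0.44 TPM in Dnmt1/3a/3b TKO, against 1.93 TPM in WT J1. Its neighbour Abca1, 101368 bases away, had 0.34 TPM and 0.42 TPM in those lines, against 5.40 TPM in WT J1.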
